A study of Homo sapiens with 9 samples.

Results

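C/D box small nucleolar RNAs were measured in MV4-11 cells, an established human acute myeloid leukaemia line, after 24 h with JPX-0750, JPX-0700 or the solvent DMSO. The titles of the study call JPX-0750 and JPX-0700 degraders of both STAT3 and STAT5. Each condition had 3 libraries, and nothing states that these came from separate cultures, so the p-values below measure only the spread between these libraries. Doses are not given in the labels used here. Gene rows were taken as C/D box RNAs where the symbol began with SNORD and the deposited normalised count averaged at least 5 over the 9 libraries. This kept 151 of 296 SNORD rows among 26929 genes. The other 145 rows comprised 122 without a read in any library and 23 with at most 78 reads in all.

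C/D box RNAs are short, stable RNAs of the nucleolus, most of them cut out of introns of host genes. They join the proteins fibrillarin, NOP56, NOP58 and SNU13. Many base-pair with ribosomal or spliceosomal RNA to place a ribose methyl group there, while a few, such as U3, take part in cutting the ribosomal precursor. Mature C/D RNAs carry no poly(A) tail, and the libraries were made with QuantSeq, a kit that reads the 3′ ends of poly(A) RNA. The reads therefore need not count mature C/D RNAs, and which form of RNA gave them was not tested. Levels and changes below are those of reads on these gene rows. How counting treated strand, overlapping annotation and multiply mapped reads is not stated in the labels.

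Most C/D RNAs are recognised by a C box near the 5′ end and a D box near the 3′ end. The 6 sequences below, from GENCODE release 29, belong to abundant members on which the results turn, a pair of U14 genes among them. They are DNA letters of GRCh38, 5′ to 3′, with TGATGA (C box) and CTGA (D box) in capitals.
SNORD3A (U3), chr17:19188016-19188232, plus strand: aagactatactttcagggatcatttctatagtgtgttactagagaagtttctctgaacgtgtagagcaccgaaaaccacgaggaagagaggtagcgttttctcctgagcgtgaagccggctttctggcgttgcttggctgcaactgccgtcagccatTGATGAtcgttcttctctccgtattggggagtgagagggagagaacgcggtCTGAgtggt
SNORD26, chr11:62855292-62855366, minus strand: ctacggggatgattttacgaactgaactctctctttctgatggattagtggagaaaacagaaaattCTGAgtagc
SNORD83A, chr22:39315213-39315307, minus strand: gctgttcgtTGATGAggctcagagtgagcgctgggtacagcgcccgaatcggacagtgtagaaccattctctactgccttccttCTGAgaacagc
SNORD14E (U14), chr11:123058077-123058161, minus strand: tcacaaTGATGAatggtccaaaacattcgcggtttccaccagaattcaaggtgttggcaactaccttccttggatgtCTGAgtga
SNORD14C (U14), chr11:123059335-123059422, minus strand: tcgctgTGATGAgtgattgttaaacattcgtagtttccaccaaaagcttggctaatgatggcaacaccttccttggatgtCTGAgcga
SNORD57, chr20:2656939-2657010, plus strand: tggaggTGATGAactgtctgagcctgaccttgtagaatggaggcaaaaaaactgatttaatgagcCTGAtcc
SNORD26 has no exact TGATGA, the TGATGA of SNORD3A begins at base 158 and so lies away from its 5′ end, and at most 7 bases follow the D box in each sequence.

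The same letters were searched for in the 131 members with a GENCODE sequence, on the strand of the gene, with SNORD3A read over its RefSeq length as printed above. TGATGA lay in the first 25 bases of 69.5% of them, CTGA in the last 20 bases of 98.5%, and both in 68.7%. Among the 129 other SNORD genes with a sequence the shares were 74.4%, 94.6% and 72.1%, and among 147 SNORA genes, which encode H/ACA box RNAs, they were 0.680%, 8.84% and 0%. The members were 60 to 237 nucleotides long (median 81) and came from 21 chromosomes. Over the 131 members, Spearman's rho with the mean level in the 6 treated libraries was -0.02 for length, -0.15 for the longest run of A, -0.27 for the share of A and 0.21 for the share of G and C, as a description of points that share the same libraries.

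The libraries held 726043 to 1941860 reads with JPX-0750, 739418 to 1852375 with JPX-0700 and 2701317 to 6305586 with DMSO. Replicate 3 of JPX-0750, replicate 3 of JPX-0700 and replicate 1 of DMSO stood apart with 10407, 10027 and 9816 genes detected, against 13068 to 14616 in the other libraries, so the results that move by over 1.5 times or change a call without these 3 are also given without them. The nuclear RNA MALAT1 took 8.92%, 6.05% and 3.49% of reads with JPX-0750, 7.85%, 6.62% and 3.62% with JPX-0700, and 0.547%, 0.176% and 0.437% with DMSO. The summed level of 10 myeloid markers ranged from 2003 to 3842 normalised counts with JPX-0750, 2508 to 4038 with JPX-0700 and 5491 to 8753 with DMSO. Most of that sum was LYZ, the lysozyme gene, with 801 to 2742 with JPX-0750, 1152 to 2659 with JPX-0700 and 4055 to 7377 with DMSO, which fell with JPX-0750 (limma adjusted p = 0.0292) and did not pass with JPX-0700 (0.0737). MEIS1, in the same list, lay above DMSO in all JPX-0750 libraries without passing (log2 fold change 1.37, limma adjusted p = 0.268), and MPO and HOXA9 reached at most 14.6 and 4.61 normalised counts. The summed level of 10 genes listed as markers of other cell types was 150.1 to 175 with JPX-0750, 58.4 to 143 with JPX-0700 and 159 to 322 with DMSO. Among these, the collagen gene COL1A1 had 4.55 to 108 normalised counts with JPX-0750, 5.56 to 23.0 with JPX-0700 and 0 in the DMSO libraries (limma adjusted p = 0.120 and 0.178). The keratin gene KRT18 averaged 17.1 with JPX-0750, 11.4 with JPX-0700 and 39.1 with DMSO. PECAM1 held most of the sum in DMSO (110 to 262 normalised counts), and averaged 87.9 with JPX-0750, 57.5 with JPX-0700 and 189 with DMSO. Neither KRT18 nor PECAM1 passed. The sum thus mostly follows PECAM1 in DMSO and does not by itself measure other cell types. HBB and EPCAM were at 0 throughout. The part of these measures in the results below was not tested, and in bulk RNA a change in which cells are present and a change in the RNA of each cell cannot be told apart.

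C/D box RNAs took a far larger share of the reads in the treated cells. All 296 SNORD rows together, a sum that needs no minimum level, made up 4.04%, 3.94% and 3.19% of the reads with JPX-0750, 3.98%, 3.39% and 3.30% with JPX-0700, and 0.0476%, 0.0168% and 0.123% with DMSO. The treated libraries did not overlap the DMSO libraries, and those of the compounds overlapped each other. The means were 3.72% ± 0.467 with JPX-0750, 3.56% ± 0.372 with JPX-0700 and 0.0624% ± 0.0546 with DMSO (SD, n = 3 each), ratios of means of 59.6 and 56.9. The exact two-sided permutation test gave p = 0.1 for each compound against DMSO, the smallest that 3 against 3 libraries allow, and p = 0.9 for JPX-0750 against JPX-0700, a difference of 0.167 percentage points. Without the 3 libraries that stood apart the differences from DMSO were 3.92 percentage points with JPX-0750 and 3.61 with JPX-0700.

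The other small RNA classes of the nucleolus and Cajal body moved the same way. H/ACA box RNAs, which guide pseudouridylation, took 0.437%, 0.403% and 0.414% of reads with JPX-0750, 0.256%, 0.234% and 0.372% with JPX-0700, and 0.00900%, 0.00381% and 0.00815% with DMSO. Small Cajal body RNAs, which guide changes in spliceosomal RNA, took 0.540%, 0.477% and 0.175% with JPX-0750, 0.319%, 0.447% and 0.237% with JPX-0700, and 0.0145%, 0.00468% and 0.0293% with DMSO. In neither class did a treated library overlap a DMSO library. C/D RNAs as a share of C/D and H/ACA reads averaged 89.8% ± 1.16 with JPX-0750, 92.5% ± 2.25 with JPX-0700 and 86.5% ± 6.45 with DMSO (SD, n = 3 each), with overlapping libraries (exact permutation p = 0.4 for JPX-0750 against DMSO and 0.3 for each of the other comparisons). With small Cajal body RNAs added to the total, the C/D share was 80.5% to 87.4% in the treated libraries and 66.5% to 76.6% in the DMSO libraries, without overlap.

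**Figure D1:**
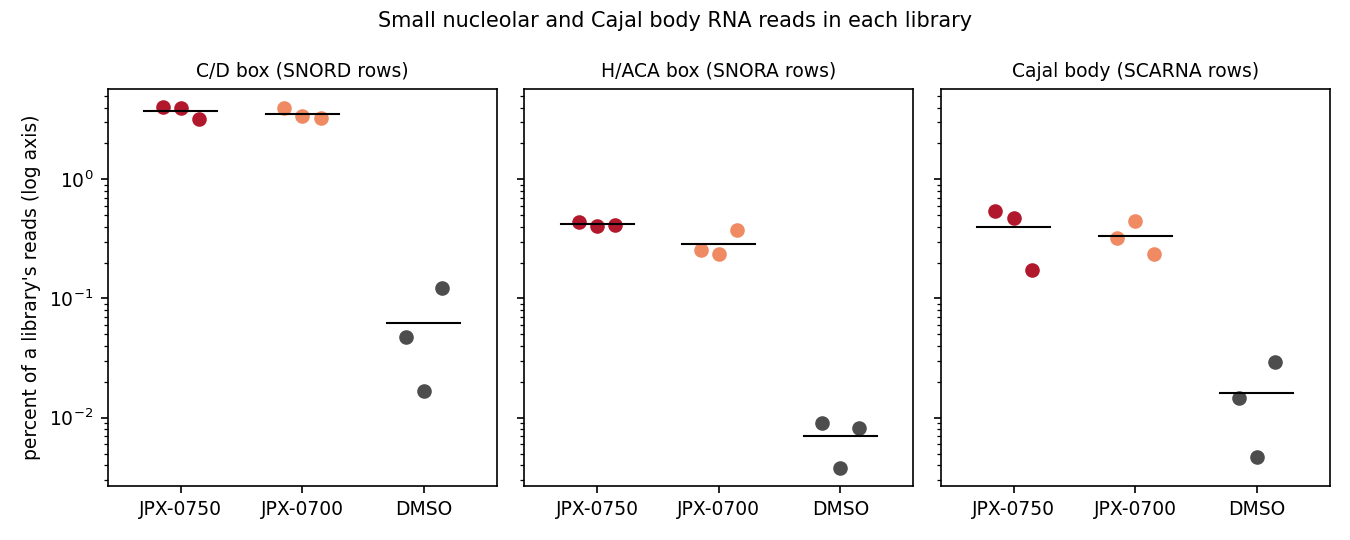
Share of all reads (percent, log axis) on C/D box, H/ACA box and small Cajal body RNAs, 1 point per library and a bar at the mean of the 3 libraries of JPX-0750, JPX-0700 and DMSO. The C/D share lies between 3.19% and 4.04% in the treated libraries and between 0.0168% and 0.123% in the DMSO libraries.

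Across the 151 members, normalised counts were higher than in DMSO nearly throughout. In limma with Benjamini-Hochberg adjustment over 12301 genes (adjusted p under 0.05), 94 members rose with JPX-0750, 57 did not pass and none fell, where 3.90% of all genes tested rose and 0.0732% fell. With JPX-0700, 82 members rose, 69 did not pass and none fell, where 5.28% of all genes rose and 0.496% fell. The 2 comparisons share the DMSO libraries. The median log2 fold change of the members was 5.86 with JPX-0750 and 5.34 with JPX-0700, against 0.26 and 0.14 over all genes tested. All 3 JPX-0750 libraries lay above all 3 DMSO libraries for 120 members, where this held for 19.7% of all genes, and all 3 JPX-0700 libraries did so for 92 members, where it held for 16.5%. For 0 members did the treated libraries lie below all DMSO libraries, which 9.18% of all genes did with JPX-0750 and 10.3% with JPX-0700.

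The members were chosen by their mean normalised count over the same 9 libraries. These counts, and the p-values of single members against DMSO below, therefore describe them and support nothing further. Only 19 members averaged at least 5 in DMSO, and the other 132 passed the minimum through the treated libraries, so those 132 had to differ. Of the 19, which include SNORD50A, SNORD26, SNORD13, SNORD57, SNORD87 and SNORD3A, 16 rose with JPX-0750 and 15 with JPX-0700. In DMSO, 45 members had no read in any library, 48 had 1 to 3 reads and 58 had more. With the 45 set at a floor of 3 reads over the DMSO group, the median ratio of reads to DMSO, scaled by the authors' normalisation, was 132 with JPX-0750 and 99.0 with JPX-0700.

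Single libraries moved these counts. Leaving out 1 library at a time gave 67 to 114 members that rose with JPX-0750 and 76 to 110 with JPX-0700. Without the 3 libraries that stood apart, 2483 of 12271 genes rose and 548 fell with JPX-0750, and 2467 rose and 650 fell with JPX-0700. That fit had a library fewer in each group and called more genes, so a pass in it alone is a description. In it, 140 and 143 members rose and none fell. Scaling each library to the same total of reads gave 83 and 82, while over all genes the median log2 fold change was then -0.23 with JPX-0750 and -0.50 with JPX-0700, and the split of all calls was 304 higher and 57 lower, and 378 higher and 283 lower.

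**Figure D2:**
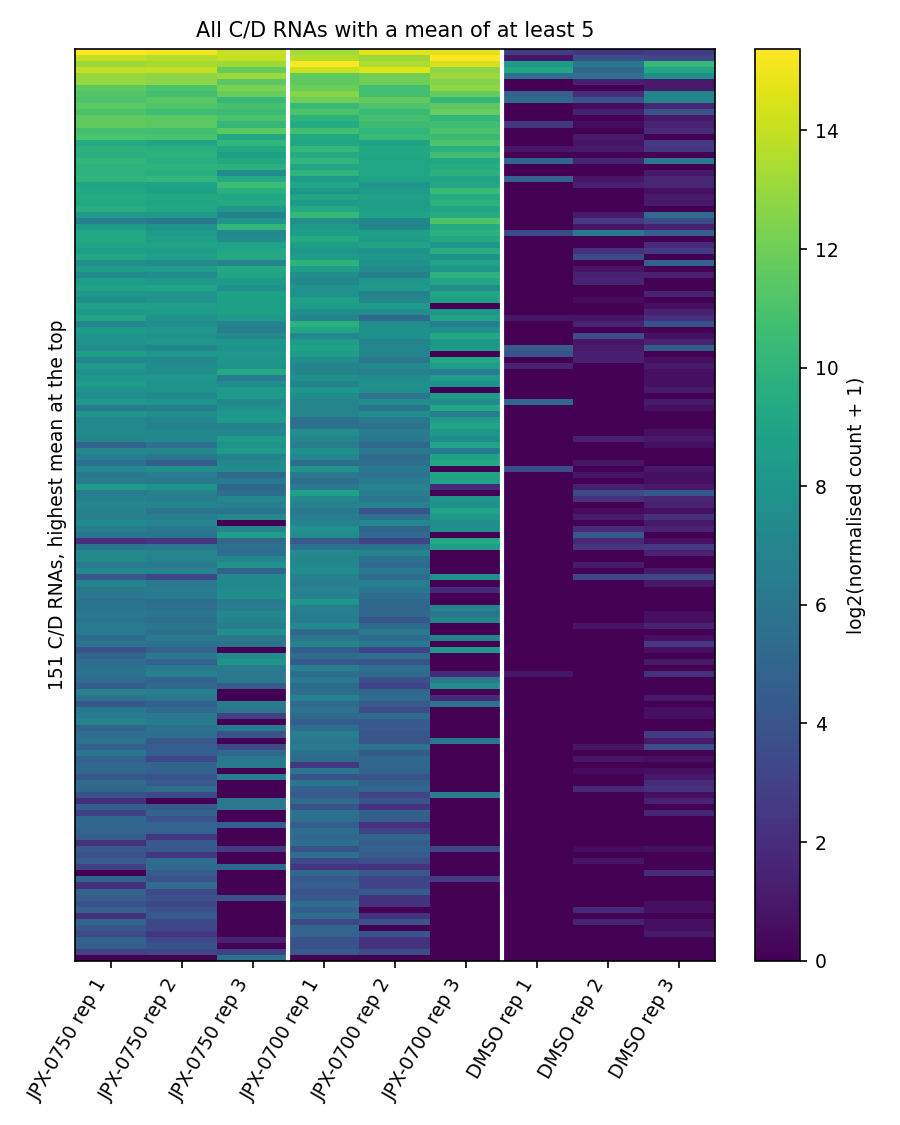
Level of each of the 151 members as log2(normalised count + 1) in the 9 libraries, columns in the order JPX-0750, JPX-0700 and DMSO, rows by mean level. Replicate 3 of JPX-0700 shows the most members at 0 among the treated libraries, with 93 members detected, against 149, 149 and 123 in the JPX-0750 libraries, 150 and 148 in the other JPX-0700 libraries and 19, 57 and 96 in the DMSO libraries.

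The pool was led by a few RNAs. The 10 members with the highest mean held 67.1% to 79.8% of C/D reads in the treated libraries and 48.8% to 86.7% in the DMSO libraries. Per 100 nucleotides of length, the level was highest for SNORD46 with JPX-0750 (31919 normalised counts, against 5.10 with DMSO) and for SNORD50A with JPX-0700 (33208, against 735 with DMSO). SNORD46 held 28.6%, 26.5% and 16.5% of C/D reads with JPX-0750, 7.12%, 24.6% and 15.7% with JPX-0700, and 0.467%, 1.04% and 0.202% with DMSO. SNORD50A held 6.09%, 8.17% and 8.85% with JPX-0750, 30.7%, 10.1% and 12.8% with JPX-0700, and 27.7%, 18.2% and 47.2% with DMSO. SNORD46 thus took a larger share in every treated library than in any DMSO library, while the shares of SNORD50A overlapped between JPX-0700 and DMSO.

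SNORD46, a guide for methylation of 28S ribosomal RNA, had the highest mean over the 9 libraries and led the C/D reads in 4 of them, the 3 JPX-0750 libraries and replicate 2 of JPX-0700. Its normalised counts were 42288, 34506 and 17046 with JPX-0750, 9655, 27683 and 26719 with JPX-0700, and 5.39, 4.22 and 5.38 with DMSO. The DMSO libraries agree closely and lie far below all treated libraries. The log2 fold change was 12.26 ± 0.48 (SE) with JPX-0750 (limma adjusted p = 2.90e-11) and 11.66 ± 0.48 with JPX-0700 (limma adjusted p = 6.85e-11). SNORD83A, from an intron of the ribosomal protein gene RPL3, stood at 8117, 6598 and 2766 with JPX-0750, 2963, 4118 and 5805 with JPX-0700, and 0, 1.53 and 1.08 with DMSO. Its log2 fold change was 11.57 ± 0.56 (SE) with JPX-0750 (limma adjusted p = 5.46e-10) and 11.22 ± 0.56 with JPX-0700 (6.38e-10), and the groups of treated and DMSO libraries did not overlap. Its neighbour SNORD83B in the same gene, 78.9% identical to it, rose by 9.69 ± 0.66 with JPX-0750 and 8.79 ± 0.66 with JPX-0700 on the log2 scale (SE, limma adjusted p = 1.31e-08 and 5.87e-08). SNORD83B was at 10.64 with JPX-0750 and SNORD83A at 10.57 with JPX-0700 without the 3 libraries that stood apart.

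SNORD50A and SNORD26 were the members best detected without a compound. SNORD50A, a 28S guide that also binds the K-Ras protein and is hosted by SNHG5, stood at 9007, 10632 and 9123 normalised counts with JPX-0750, 41666, 11370.5 and 21681 with JPX-0700, and 319.7, 74.0 and 1259.7 with DMSO. SNORD26, a 28S guide in SNHG1, stood at 15891, 16353 and 3430.2 with JPX-0750, 17849, 25238 and 6767 with JPX-0700, and 563, 32.2 and 534 with DMSO. For both, all treated libraries lay above all DMSO libraries, and the DMSO libraries spread more than 10-fold. The log2 fold change of SNORD50A was 4.94 ± 0.71 (SE) with JPX-0750 (limma adjusted p = 1.84e-04) and 6.12 ± 0.71 with JPX-0700 (1.68e-05). Without DMSO replicate 2 these were 3.91 and 5.10, and without DMSO replicate 3 they were 5.95 and 7.13. The log2 fold change of SNORD26 was 5.48 ± 0.86 (SE) with JPX-0750 (limma adjusted p = 4.57e-04) and 6.07 ± 0.86 with JPX-0700 (1.40e-04). It was 4.13 and 4.72 without DMSO replicate 2, 6.17 and 6.77 without DMSO replicate 1, 6.14 and 6.73 without DMSO replicate 3, and 6.22 with JPX-0750 without its replicate 3. It was 6.92 and 7.31 without the 3 libraries that stood apart.

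Among the guides for 18S and 28S ribosomal RNA, SNORD57 (18S, in NOP56) averaged 2078 ± 754 normalised counts with JPX-0750, 2856 ± 1492 with JPX-0700 and 59.8 ± 57.7 with DMSO (SD, n = 3 each). SNORD87 (28S, in SNHG6) averaged 2613 ± 871 with JPX-0750, 3706 ± 2200.4 with JPX-0700 and 51.0 ± 64.9 with DMSO. SNORD28 (18S, in SNHG1) averaged 2049 ± 602 with JPX-0750, 1619 ± 478 with JPX-0700 and 0.897 ± 1.55 with DMSO. For each of the 3, no treated library overlapped a DMSO library. SNORD57 had a log2 fold change of 5.51 ± 0.65 (SE) with JPX-0750 and 5.87 ± 0.65 with JPX-0700, SNORD87 6.73 ± 0.85 and 7.10 ± 0.85, and SNORD28 10.33 ± 0.64 and 9.99 ± 0.64, each past the threshold of limma. For JPX-0750 and JPX-0700 in turn, SNORD57 gave 4.79 and 5.15 without DMSO replicate 2 and 6.28 and 6.64 without DMSO replicate 3. SNORD87 gave 5.46 and 5.82 without DMSO replicate 2 and 7.93 and 8.30 without DMSO replicate 3, and SNORD28 10.96 and 10.62 without DMSO replicate 3.

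Several members with large changes had no read or few reads in DMSO. SNORD74, in GAS5, stood at 982, 982 and 926 normalised counts with JPX-0750, 525, 529 and 719.7 with JPX-0700, and 0 in all 3 DMSO libraries. Against the floor of 3 reads this was at least 1771-fold higher with JPX-0750 and at least 1133-fold higher with JPX-0700. SNORD96A, a 5.8S guide in RACK1 that also had no DMSO read, was at least 1189-fold higher with JPX-0750 and at least 1934-fold higher with JPX-0700. SNORD71, a 5.8S guide in AP1G1 with 2 DMSO reads, stood at 3119, 2751 and 1949 with JPX-0750, 986, 1804 and 1089 with JPX-0700, and 0, 0 and 1.08 with DMSO. Its read ratio to DMSO was 6736 with JPX-0750 (exact 95% interval 1863 to 55653) and 3598 with JPX-0700 (994 to 29744), intervals that cover counting error only. SNORD95, also in RACK1, had 3 DMSO reads, a ratio of 2304 (787 to 11186) with JPX-0750 and 2205 (752 to 10709) with JPX-0700. All 4 reached the minimum level through the treated libraries and so had to differ. They passed the threshold of limma with each compound (adjusted p from 1.28e-09 to 1.09e-07), which only describes them.

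**Figure D3:**
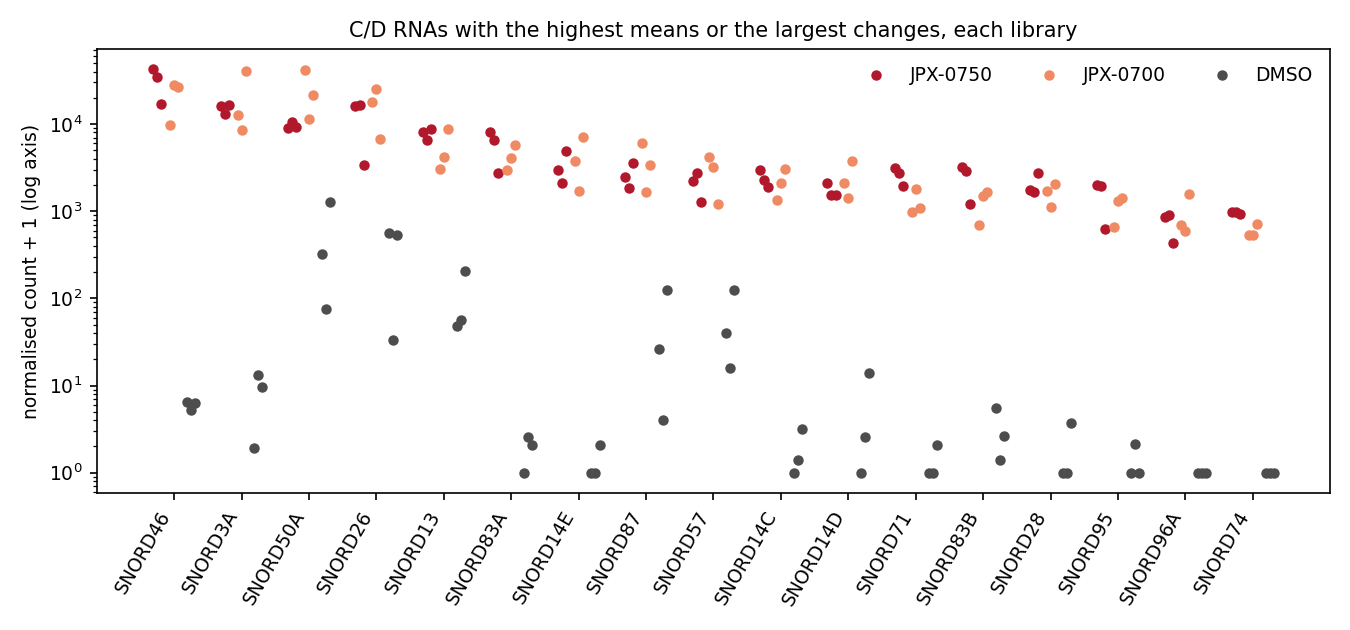
Normalised count + 1 (log axis) of 17 leading members, 1 point per library, for JPX-0750, JPX-0700 and DMSO. The treated points of SNORD46 sit between 9655 and 42288 and its DMSO points between 4.22 and 5.39, while SNORD50A and SNORD26 have DMSO points up to 1259.7 and 563.

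The members that act beyond a single methylation rose with both compounds, apart from U22 with JPX-0700 and one U3 copy. SNORD3A encodes U3, which is needed to cut the precursor of 18S RNA. It stood at 16031, 13169.6 and 16373 normalised counts with JPX-0750, 12849, 8464 and 40992 with JPX-0700, and 0.898, 12.3 and 8.61 with DMSO. The log2 fold change was 11.24 ± 0.65 (SE) with JPX-0750 (limma adjusted p = 1.61e-09) and 11.37 ± 0.65 with JPX-0700 (2.18e-09). Without DMSO replicate 1 it was 10.39 and 10.51, with JPX-0700 it was 10.71 without its replicate 3, and without the 3 libraries that stood apart it was 10.33 and 9.85. SNORD3C, with 1 DMSO read, had a read ratio of 446 (78.1 to 17828, exact 95% interval) with JPX-0750 and 1314 (233 to 52143) with JPX-0700, and its call with JPX-0750 (limma adjusted p = 0.00568) did not hold without JPX-0750 replicate 1 (0.0512). With JPX-0700 its log2 fold change was 6.70, and it became 7.38 or 5.73 when JPX-0700 replicate 1 or 3 was left out, and 5.62 without the 3 libraries that stood apart. SNORD3D did not pass with JPX-0750 (limma adjusted p = 0.256) or JPX-0700 (0.148), and passed without the 3 libraries that stood apart (0.00935 and 0.00852), and SNORD3B-1 and SNORD3B-2 had no read. The U3 copies share most of their sequence, so the split of reads among them is uncertain.

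SNORD13, or U13, pairs with 18S RNA to place an acetyl group with the enzyme NAT10 and, like SNORD3A and SNORD3C, has no host gene. It stood at 8178, 6621 and 8781 normalised counts with JPX-0750, 3046, 4234 and 8729 with JPX-0700, and 47.6, 55.6 and 203 with DMSO, without overlap. The log2 fold change was 6.56 ± 0.53 (SE) with JPX-0750 (limma adjusted p = 1.63e-07) and 5.87 ± 0.53 with JPX-0700 (6.55e-07). Without DMSO replicate 3 it was 7.22 and 6.52, and with JPX-0700 it was 5.06 without the 3 libraries that stood apart. U22, encoded by SNORD22 in SNHG1 and known from Xenopus for maturation of 18S RNA, stood at 359, 232 and 33.3 with JPX-0750, 69.1, 112 and 2.78 with JPX-0700, and 0, 1.53 and 1.08 with DMSO. It passed with JPX-0750 (log2 fold change 6.35 ± 1.49 SE, limma adjusted p = 0.0178) and not with JPX-0700 (4.16 ± 1.49, 0.121). The call with JPX-0750 did not hold without JPX-0750 replicate 1 (5.68, adjusted p = 0.160), JPX-0750 replicate 2 (0.117) or DMSO replicate 1 (0.0699), and the value was 7.38 without JPX-0750 replicate 3. Without the 3 libraries that stood apart it passed with both compounds, at 6.98 and 5.28 (limma adjusted p = 4.84e-06 and 6.36e-05). SNORD118, which encodes U8, had no read in any library.

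All 5 genes of U14, known in yeast for processing of 18S RNA, rose with both compounds. They are 74.7% to 85.9% identical and lie in HSPA8 (SNORD14C, SNORD14D and SNORD14E) and RPS13 (SNORD14A and SNORD14B). SNORD14E stood at 2982, 2092 and 4929.6 normalised counts with JPX-0750, 3807, 1681 and 7036 with JPX-0700, and 0, 0 and 1.08 with DMSO, where it had 2 reads. Its read ratio was 10759 (2977 to 88871, exact 95% interval) with JPX-0750 and 12572 (3478 to 103848) with JPX-0700. SNORD14C rose by 10.47 ± 0.60 (SE, log2) with JPX-0750 and 10.29 ± 0.60 with JPX-0700 (limma adjusted p = 1.61e-09 and 2.82e-09). SNORD14B, without a DMSO read, was at least 602-fold higher with JPX-0750 and at least 1019-fold higher with JPX-0700. SNORD14D rose by 9.02 with JPX-0750 and 9.41 with JPX-0700 on the log2 scale, which became 8.17 and 8.56 without DMSO replicate 1 and 10.07 and 10.46 without DMSO replicate 3. SNORD14A rose by 7.85 with JPX-0750 and 7.03 with JPX-0700, or 9.01 and 8.18 without DMSO replicate 2. Without the 3 libraries that stood apart, SNORD14D was at 8.25 and 8.19, SNORD14A at 7.10 with JPX-0750 and SNORD14C at 9.65 with JPX-0700. SNORD14E with JPX-0700 was then at 10.78, against 11.45 with all libraries.

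Of the imprinted clusters, SNORD116 held nearly all of the reads. SNORD113 and SNORD114, of the chromosome 14 cluster, had no read in 9 and 31 rows. SNORD115, known as a brain RNA that pairs with the serotonin receptor 2C transcript, had reads in 5 of 48 rows and 1 member, SNORD115-30, with 51.6 normalised counts in JPX-0750 replicate 3 and 0 in the other 8 libraries. SNORD116, in the Prader-Willi region, had 18 members among 30 rows, with 908 reads with JPX-0750, 972 with JPX-0700 and 61 with DMSO over all rows, and 4 members rose with JPX-0750 and 2 with JPX-0700. SNORD116-1 had 168, 267 and 1 reads in the JPX-0750, JPX-0700 and DMSO groups, and SNORD116-8 had 127, 130.0 and 3. SNORD116-18 had 22, 229 and 7 reads, with 619.7 normalised counts in JPX-0700 replicate 3 against 18.4 and 7.45 in the other JPX-0700 libraries. The read numbers of this cluster are not scaled for depth, and the DMSO libraries were the deepest. Because 8 of the 18 members share over 50% of their stretches of 30 bases with other SNORD genes, their individual values are uncertain.

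At the minimum level itself, the members with the lowest means were SNORD115-30 (5.74), SNORD1A (5.80) and SNORD103C (6.13), and the rows just left out were SNORD140 (4.90), SNORD59A (4.61) and SNORD136 (3.56). SNORD140 stood at 3.42, 4.55 and 0 with JPX-0750, 0 throughout with JPX-0700, and 0, 11.9 and 24.2 with DMSO. SNORD59A, SNORD136 and the 3 members had no DMSO read. None of the 3 members passed with either compound, but without the 3 libraries that stood apart SNORD1A (limma adjusted p = 0.0327 with JPX-0750 and 0.0120 with JPX-0700) and SNORD103C (0.00981 and 0.0429) did. That fit had a library fewer in each group. It called 3031 genes with JPX-0750 and 3117 with JPX-0700, against 489 and 710 with all 9 libraries. Both members reached the minimum only through the treated libraries, so these passes support nothing further.

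Most host genes did not pass the threshold, whether or not the RNAs inside them did. Of the members, 92 lay in 53 protein-coding hosts, 56 in 16 noncoding hosts and 3 in none. Of 63 hosts tested, 5 rose with each compound and none fell (7.94%, against 3.90% and 5.28% of all genes). With each compound these were 4 of 11 noncoding hosts tested (36.4%) and 1 of 52 protein-coding hosts (1.92%). Of the 107 members whose host did not pass, 74 rose with JPX-0750 and 65 with JPX-0700, and of the 18 whose host rose, 11 and 11. The other 26 members had no tested host. The mean log2 ratio of C/D counts to the counts of their hosts was -0.84 with JPX-0750, -0.91 with JPX-0700 and -7.21 with DMSO, with libraries from -1.40 to -0.537 with JPX-0750, from -1.59 to -0.543 with JPX-0700 and from -9.04 to -5.64 with DMSO. The treated libraries did not overlap the DMSO libraries (exact permutation p = 0.1 for each compound against DMSO, n = 3 each, the smallest possible).

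HSPA8, a heat shock protein gene that hosts 3 U14 genes, had 2540.1, 1996 and 2910.4 normalised counts with JPX-0750, 3567, 2519 and 3818 with JPX-0700, and 705, 1901 and 1370.1 with DMSO. All treated libraries lay above the DMSO libraries, yet HSPA8 did not pass, with a log2 fold change of 1.0 with JPX-0750 (limma adjusted p = 0.277) and 1.41 with JPX-0700 (0.0631). The hosts that rose, with their log2 fold changes for JPX-0750 and then JPX-0700, were the noncoding genes SNHG12 (4.15 and 3.59), SNHG25 (2.18 and 2.96), SNHG5 (2.34 and 1.94) and GAS5 (2.25 and 2.05), and the ribosomal protein gene RPL23A (1.91 and 2.72), with limma adjusted p from 5.11e-06 to 0.0395. The call of GAS5 with JPX-0750 was lost when any 1 of 5 libraries was left out, while its log2 fold change stayed near 2.25: 2.20, 2.34 and 2.21 (limma adjusted p = 0.0923, 0.0591 and 0.0621) without JPX-0750 replicates 1, 2 and 3, and 1.93 and 2.19 (0.125 and 0.0590) without DMSO replicates 1 and 3. With JPX-0700 it was 1.44 (0.0552) without JPX-0700 replicate 3, 1.73 and 1.98 (0.159 and 0.0755) without DMSO replicates 1 and 3, and 1.12 (0.0680) without the 3 libraries that stood apart. SNHG5 missed the threshold with JPX-0750 without JPX-0750 replicate 1 (2.09, limma adjusted p = 0.0507), and with JPX-0700 without JPX-0700 replicate 1 (1.87, 0.0523) or DMSO replicate 3 (1.54, 0.0817). RPL3, the host of SNORD83A and SNORD83B, passed with JPX-0750 without the 3 libraries that stood apart (1.41, 0.0395) and did not with all of them (0.93, 0.333). With JPX-0700, SNHG6 moved from 1.61 to 0.91 without those 3 libraries and AP1G1 from -0.67 to -0.0075, and neither passed in either fit. For GAS5 and SNHG5, scaling to the same total ended the call with JPX-0700 (0.11 and 0.111), and for GAS5 also that with JPX-0750 (0.0630).

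**Figure D4:**
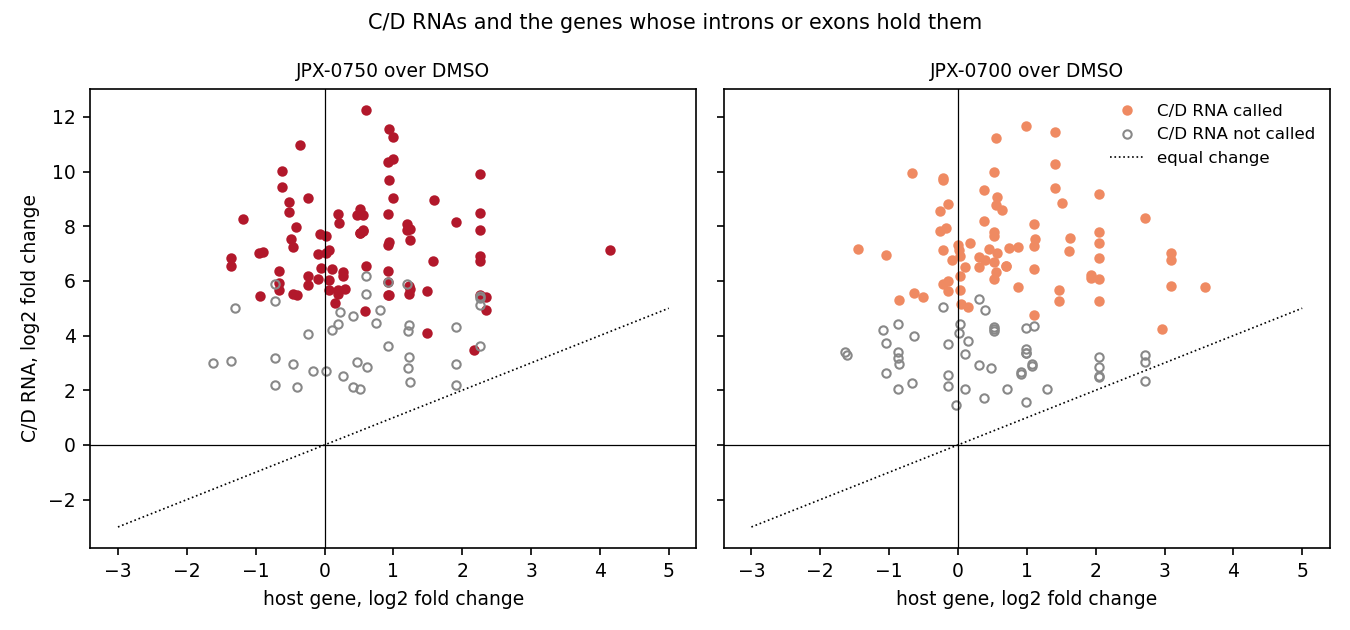
Log2 fold change against DMSO of each member with a tested host (vertical axis) against that of its host gene (horizontal axis), 1 point per member, for JPX-0750 (left) and JPX-0700 (right). Members spread up to 12.26 on the vertical axis with JPX-0750, while the host with the highest value there, SNHG12, lies at 4.15 on the horizontal axis.

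RNAs of 1 host differed widely in level. Per 100 nucleotides, the mean level in the 6 treated libraries ran from 65.7 normalised counts (SNORD31) to 19006 (SNORD26) in SNHG1, and from 42.3 (SNORD77) to 1079.9 (SNORD74) in GAS5. Of the 8 members in SNHG1, 6 rose with JPX-0750 and 5 with JPX-0700, and of the 10 in GAS5, a noncoding gene of the growth arrest response, 6 and 6. None of the 4 members in RPL4 passed. For 74 members an annotated exon of another gene, on either strand, spans the whole member. On the same strand its reads cannot be told apart from those of that gene. On the other strand this depends on how counting treated strand, which is not stated. Of the 74, 47 rose with JPX-0750 and 43 with JPX-0700, against 47 and 39 of the other 77.

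Among the listed genes of proteins around C/D RNAs, ZFC3H1 alone passed the threshold with all 9 libraries and the authors' scaling. None of the core proteins FBL, NOP56, NOP58 and SNU13 passed the threshold with either compound. FBL, the methyltransferase, had log2 fold changes of -0.83 with JPX-0750 (limma adjusted p = 0.377) and -0.63 with JPX-0700 (0.410), and SNU13 had -1.10 (0.257) and -0.93 (0.272). Without the 3 libraries that stood apart, SNU13 fell by 1.33 with JPX-0750 (limma adjusted p = 0.0289). On the same total per library, FBL fell by 1.36 (0.0486) and SNU13 by 1.66 (0.0462) with JPX-0700, where all genes together had a median of -0.50. None of 7 tested assembly factors and none of 8 U3 proteins passed. Among 8 tested factors of end processing and turnover, ZFC3H1, which helps to direct nuclear RNA to the exosome, rose, with 986, 928 and 663 normalised counts with JPX-0750, 1161, 794 and 1459 with JPX-0700, and 151, 92.0 and 385 with DMSO. Its treated and DMSO libraries did not overlap, and its log2 fold change was 2.27 with JPX-0750 (limma adjusted p = 0.0169) and 2.65 with JPX-0700 (0.00405). With JPX-0750 that call was lost without JPX-0750 replicate 1 (2.16, 0.105) or 2 (2.20, 0.0890), without DMSO replicate 1 (2.16, 0.0813) or 2 (1.81, 0.114), and on the same total (1.73, 0.0903). The other 7, which include SKIV2L2, the exosome helicase, at 1.30 (0.208) and 1.53 (0.0866), did not pass.

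JPX-0750 and JPX-0700 were also set against each other at their single time of 24 h, without knowledge of dose. No gene passed limma's threshold (0.00% of 12301 higher and 0.00% lower), and 395 genes, 1 of them a member, had an unadjusted p under 0.05. A block of replicate number was also fitted over all 9 libraries, DMSO included, although no label states a pairing. No gene passed then either, and 427 genes and 1 member had an unadjusted p under 0.05. The median log2 difference of the members, JPX-0750 minus JPX-0700, was 0.24, against 0.10 over all genes. For 13 members all JPX-0750 libraries lay above all JPX-0700 libraries, where this held for 4.72% of all genes, and for SNORD50A, SNORD89 and SNORD58A they lay below, where this held for 3.63%. SNORD71 was among the 13, with a log2 difference of 1.04 (95% interval -0.23 to 2.30), as was SNORD74, with 0.72 (-0.76 to 2.20). SNORD50A differed by -1.19 (-2.68 to 0.31) and SNORD46 by 0.60 (-0.41 to 1.61). The intervals of these 4 include 0 and also differences of more than 1 in size, so they do not show that the compounds act alike.

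The member with an unadjusted p under 0.05 (0.0456) was SNORD116-13, singled out after its values were seen. It stood at 44.5, 27.3 and 252 normalised counts with JPX-0750, 18.4, 14.9 and 0 with JPX-0700, and 0, 0 and 1.08 with DMSO, and its adjusted p was 0.848. The median coefficient of variation over the members was 44.1% with JPX-0750 and 87.8% with JPX-0700. In DMSO it was 173%, the value that 3 libraries give when 1 alone has reads, so it cannot be set beside those of the compounds. In replicate 3 of JPX-0700, 55 members were at 0 while both partner libraries had reads, against 27 in replicate 3 of JPX-0750. An example is SNORD35A, in RPL13A, with 411, 373 and 413 normalised counts with JPX-0750, 327, 313 and 0 with JPX-0700, and 0, 0 and 0.538 with DMSO. Over the 151 members, Pearson's r of log levels between replicates 1 and 2 was 0.952 with JPX-0750 and 0.907 with JPX-0700, and replicate 3 had 0.770 with each partner for JPX-0750 and 0.699 and 0.716 for JPX-0700, as a description of libraries of unequal depth.

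**Figure D5:**
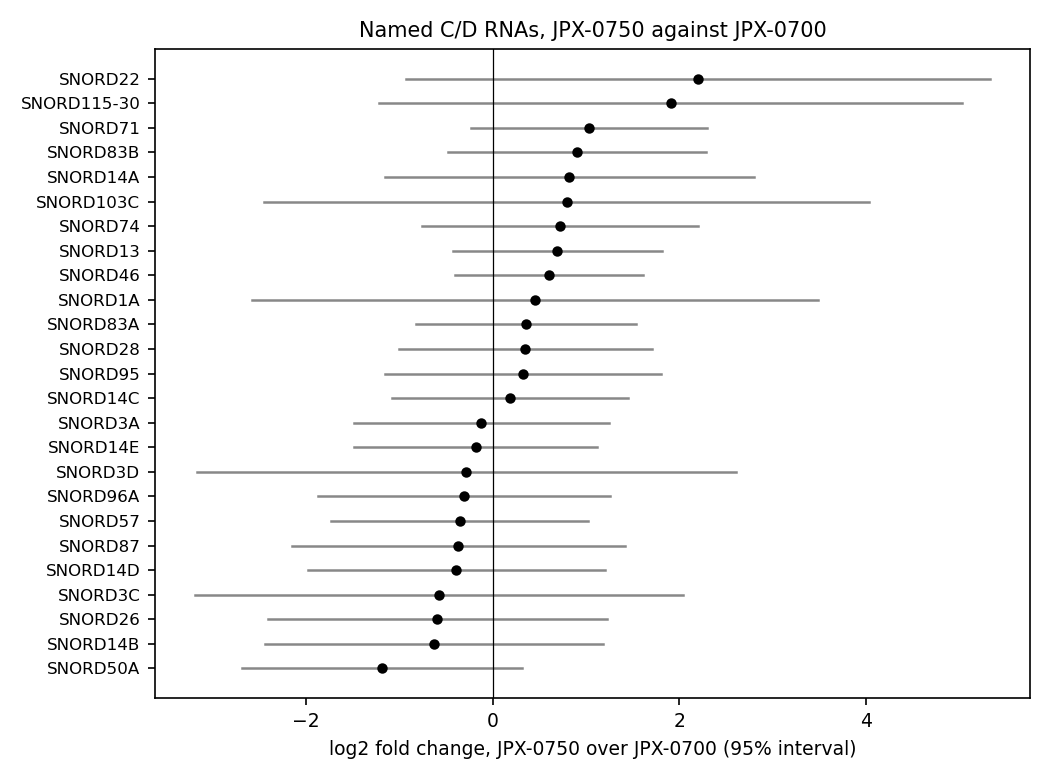
Log2 difference JPX-0750 minus JPX-0700 of 25 named members with its 95% interval. All 25 intervals cover 0, among them SNORD46 at 0.60, SNORD71 at 1.04 and SNORD50A at -1.19.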

How the data were processed

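RNA from MV4-11 cells was read as QuantSeq 3′ libraries (single reads, NextSeq550), per the labels' protocols. GRCh38, DESeq2, featureCounts 2.0.3, STAR 2.4.2a, SAMtools 1.4 and FastQC 0.11.9 are listed in the submitters' processing notes, with no roles. The deposited table holds normalised counts per gene, another unit than raw counts. Each value was a whole multiple of 1 step per library (tolerance 1e-06), from which whole reads were recovered for totals, shares and ratios. The fit of the design, limma 3.58.1 (R 4.3.3) with a mean-variance trend on log2(normalised count + 1), used all 9 libraries and 12301 genes with a mean of at least 5. Fold changes on this scale understate low genes. Values with 1 number per library had exact permutation tests (scipy 1.17.1). Intervals (95%) and floors of 3 reads cover counting error only. Coordinates and lengths of all 296 SNORD rows came from RefSeq GRCh38.p14, and strands, hosts, exons and sequences from GENCODE release 29, which matched 260 rows and 131 members. Named genes were the 10 highest, the 10 with the largest change per comparison, members with wider roles, imprinted clusters, the rows around the minimum, hosts of the first 2 kinds, and listed proteins. The members and lists were chosen with earlier results of these data known. The 17 alternative fits included leaving out each library, other pseudocounts and filters, and a replicate block. Deviations from group means correlated at 0.129 to 0.190 between same-numbered JPX-0750 and JPX-0700 libraries, and at -0.143 to -0.0436 with DMSO. Numbers were taken as pairs only in the block, on these data alone. The block was fitted over all 9 libraries, so DMSO libraries were tied by number too. The scripts were checked on simulated data. TAF9, PARN and the host EIF4A1 are listed at 0, and DXO had 1 read. Some items are not reported here.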

Additional observations from a re-analysis of the deposited data

How the results depend on the processing

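Of 50 fold changes of named members against DMSO, 41 passed and 39 of these held under every alternative run. The exceptions are SNORD22 and SNORD3C with JPX-0750. The replicate block gave 94 and 83 members that rose with JPX-0750 and JPX-0700, against 94 and 82 without it, and changed no call between the compounds. Genes called with JPX-0750 numbered 489, and 254 to 1167 when each library was left out in turn (254 and 270.0 without JPX-0750 replicates 1 and 2, 307 without DMSO replicate 2, 1167 without JPX-0700 replicate 3), 3031 without the 3 libraries with the fewest genes and 945 with voom. With JPX-0700 they numbered 710, then 390.0 to 1017 (422 and 390.0 without DMSO replicates 1 and 2), 3117 and 1299. Members called with JPX-0700 were 143 without those 3 libraries. Leaving out the most abundant member lowered the difference in C/D share to 2.75 percentage points with JPX-0750 and 2.95 with JPX-0700. Adding small Cajal body RNAs to the denominator of the C/D share of small RNAs changed its difference from DMSO to 12.2 and 15 percentage points. Treated and DMSO libraries then did not overlap (exact permutation p = 0.1 for each compound, the smallest possible). Leaving out each library in turn moved the difference in C/D share of C/D and H/ACA reads between 0.878 and 7.0 with JPX-0750, 3.51 and 9.63 with JPX-0700, and -3.92 and -1.88 between the compounds. The difference in C/D share of all reads moved between 3.50 and 3.93, 3.28 and 3.62, and 0.00900 and 0.435. Hosts that did not pass changed sign in 4 cases: AP1G1 with JPX-0750 gave 0.14 without the 3 libraries, and with JPX-0700 RACK1 gave 0.048 without JPX-0700 replicate 2 (-0.47 to 0.048 over all libraries left out in turn), while RPL3 gave -0.18 and SNHG1 -0.21 on the same total. The cause was not tested. For JPX-0750 against JPX-0700 the count of 0 genes held with voom, chosen after seeing the data, with 547 genes and 16 members at an unadjusted p under 0.05. Count models of edgeR and DESeq2 and their scaling factors were not run. In DMSO 93 members had at most 3 reads, although those libraries were the deepest, so their fold changes are set by few reads.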
